A study of Mus musculus with 40 samples.

Results

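The complement components and receptors described here are 8 genes, chosen by gene name from the 30728 gene names on the arrays: *C1qa*, *C1qb* and *C1qc*, which encode the A, B and C chains of C1q, *C4b*, *C3*, the inhibitor gene *Serping1*, and the receptor genes *C3ar1* and *C5ar1*. The members were taken by name, and the names were chosen with earlier results of these data known. Total RNA of cerebral cortex or cerebellum of C57Bl/6 mice was measured on 40 single-colour Agilent arrays in 10 groups of 4. Each region had 5 groups. One was young, wild type and 2 months of age, and the other 4 were aged, at 29 months. The young group and an aged wild-type group ate the normal diet (36 mg alpha-tocopherol per kg), another aged wild-type group ate an alpha-tocopherol-deficient diet, and 2 aged Ttpa-/- groups ate the deficient or a supplemented diet (600 mg per kg). *Ttpa* encodes the alpha-tocopherol transfer protein, which carries vitamin E out of the liver, and the Ttpa-/- mice lack it in the whole body. No young Ttpa-/- group and no Ttpa-/- group on the normal diet is among the 10 groups.

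Complement is a chain of plasma and tissue proteins that tags and clears particles. In the classical pathway C1q binds a surface, the proteases of the C1 complex cut C4 and C2, the resulting convertase cuts C3, and fragments of C3 and C5 act on receptors of myeloid cells. In the brain, C1q is made mainly by microglia, C4 and C3 by glia, and the pathway is known for the removal of synapses and for its rise in the aged brain.

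The 8 genes were measured by 10 probes of 60 bases, 2 each for *C3* and *Serping1* and 1 for each other gene. The probes are shown because the readings of *C3* differed by probe and because the *C4b* probe cannot be read as *C4b* alone. They are printed 5′ to 3′ in lower case as deposited, with mm9 positions as the files give them. The chains of C1q are represented by *C1qa*, at chr4:136452409-136452468 on the minus strand, and *C1qb*, at chr4:136436578-136436637 on the minus strand.
C1qa: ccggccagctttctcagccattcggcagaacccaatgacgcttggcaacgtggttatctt
C1qb: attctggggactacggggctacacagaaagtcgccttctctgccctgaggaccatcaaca
The *C3* probes lie 202 bases apart on the minus strand of chromosome 17, the brighter at chr17:57343678-57343737 and the second at chr17:57343416-57343475. The brighter one stands for *C3* below and the second is named as such. The files list a second transcript for the brighter probe, which was not found in the table of gene names used here.
C3: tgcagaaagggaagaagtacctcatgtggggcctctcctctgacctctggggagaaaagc
C3 second probe, first 30 of 60 bases: attcacagaatctatggtggtttatggttg
The *C4b* probe, at chr17:34865328-34865387 on the minus strand, is listed in the files for the transcripts of both *C4b* and its near-identical neighbour *C4a*. Signal of the 2 genes cannot be told apart, and "C4b" below stands for this probe.
C4b, first 30 of 60 bases: cctcactggattagaggctctgctctacag
The second *Serping1* probe covers 1507 bases of the genome with its 60, from chr2:84605968-84607474 on the minus strand, so it crosses an intron and reads spliced transcript.
Serping1 second probe: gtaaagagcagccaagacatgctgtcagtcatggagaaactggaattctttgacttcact

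The *C1qb* and *C1qc* genes lie on the minus strand of chromosome 4 and rose together with age (below), so their promoters are shown. A table of RefSeq promoters on GRCm38.p6 held 5 of the 8 genes, *C1qb*, *C1qc*, *C3*, *C3ar1* and *C5ar1*, and not *C1qa*, *C4b* or *Serping1*. The 250 bases before the start of each gene were searched on both strands for 6 motifs. The ETS core GGAAGT, read by PU.1, a transcription factor of macrophages, is part of the longer PU.1 box GAGGAAGT, and the other motifs were TTGCNNAA (C/EBP), TGANTCA (AP-1), GGGANNTTC (NF-kB) and TATAAA. Capitals mark the matches, which stand on the opposite strand for both genes.
C1qb, chr4:136886201-136886450, minus strand: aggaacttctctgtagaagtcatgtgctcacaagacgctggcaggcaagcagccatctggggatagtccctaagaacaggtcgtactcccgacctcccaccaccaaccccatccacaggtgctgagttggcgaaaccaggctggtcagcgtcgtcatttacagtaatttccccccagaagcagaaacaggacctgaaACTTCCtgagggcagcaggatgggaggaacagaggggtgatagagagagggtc
C1qc, chr4:136892915-136893164, minus strand: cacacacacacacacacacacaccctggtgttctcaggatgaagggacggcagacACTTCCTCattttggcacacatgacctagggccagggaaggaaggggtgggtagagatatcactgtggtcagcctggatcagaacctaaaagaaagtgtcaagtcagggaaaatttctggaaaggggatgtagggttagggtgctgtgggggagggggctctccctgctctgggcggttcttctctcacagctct
The *C1qb* match began 53 bases before the start and the *C1qc* match, a whole PU.1 box, 195 bases before it. The ETS core was found in 19.7% of the 32851 promoters of the table and the PU.1 box in 2.44%. The *C5ar1* promoter held the ETS core in 2 places. The *C3* promoter held TTGCNNAA, which 9.56% of all promoters hold, and the *C3ar1* promoter TGANTCA (6.75%) and TATAAA (12.4%). GGGANNTTC, found in 3.23% of all promoters, was in none of the 5 windows.

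Values are log2 signals relative to the array's 75th percentile, and differences between groups are log2 changes with their standard errors. The arrays' 75th percentiles of signal lay between 365 and 925, and 51.4% to 61.4% of probes were well above background, the scanner software's own flag. The arrays lay on 5 slides of 8, each with 2 groups. Cortical neuron markers summed to 67.5 or more, relative to the 75th percentile, on every cortex array and to 3.60 or less on every cerebellum array, and cerebellar neuron markers to 505 or more and 7.04 or less the other way round, as the labels have it. A *Ttpa* probe exceeded background on all 4 arrays of every wild-type cerebellum group, and in the Ttpa-/- cerebellum on 0 of 4 (deficient) and 1 of 4 (supplemented). In the cortex the probe was above background on at most 1 array of any group and checks no label there. A second, dimmer *Ttpa* probe was above background on no wild-type array of either region. It was above background on 1 of 4 Ttpa-/- cerebellum arrays on the deficient diet, and checks no label. The precision of every value is limited by the 4 arrays of a group, which the study's methods give as 4 mice. Whether the cortex and cerebellum arrays came from the same mice is not given in the sources used here.

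In the young brain the classical pathway genes stood at different levels in the 2 regions. All chains of C1q were lower in the young cerebellum than in the young cortex, and *Serping1*, which encodes C1 inhibitor, the plasma serpin that blocks the proteases of the C1 complex, was higher. The young cortex gave *C1qa* signals of 2.14, 1.94, 1.84 and 2.29, and the young cerebellum 0.19, 0.43, 0.64 and 0.56. No cerebellum array reached the lowest cortex array. The difference was -1.60 (SE 0.15, adjusted p = 3.61e-11 by limma with Benjamini-Hochberg adjustment over all probes tested, as for every adjusted p below), that of *C1qb* was -1.58 and that of *C1qc* -1.71. *C4b* was also lower in the young cerebellum, by -0.89 (SE 0.22, adjusted p = 7.24e-04). *Serping1* was 2.16-fold higher in the young cerebellum, at 0.89, 1.20, 0.98 and 0.72 against -0.30, 0.01, 0.02 and -0.38 in the young cortex (log2 difference 1.11, SE 0.10), and its second probe 2.25-fold higher. The *C3* difference of -0.07 (SE 0.18, 95% confidence interval -0.43 to 0.30, adjusted p = 0.76) did not pass the test. A call required a fold change over 1.5 together with an adjusted p under 0.05, and a probe was tested when all 4 arrays of at least 1 compared group were well above background. Of the 8 probes tested 6 were called, beside 38.4% of all probes tested, so calls were common between these tissues. Region here coincides with slide and cannot be told apart from it.

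**Figure D1:**
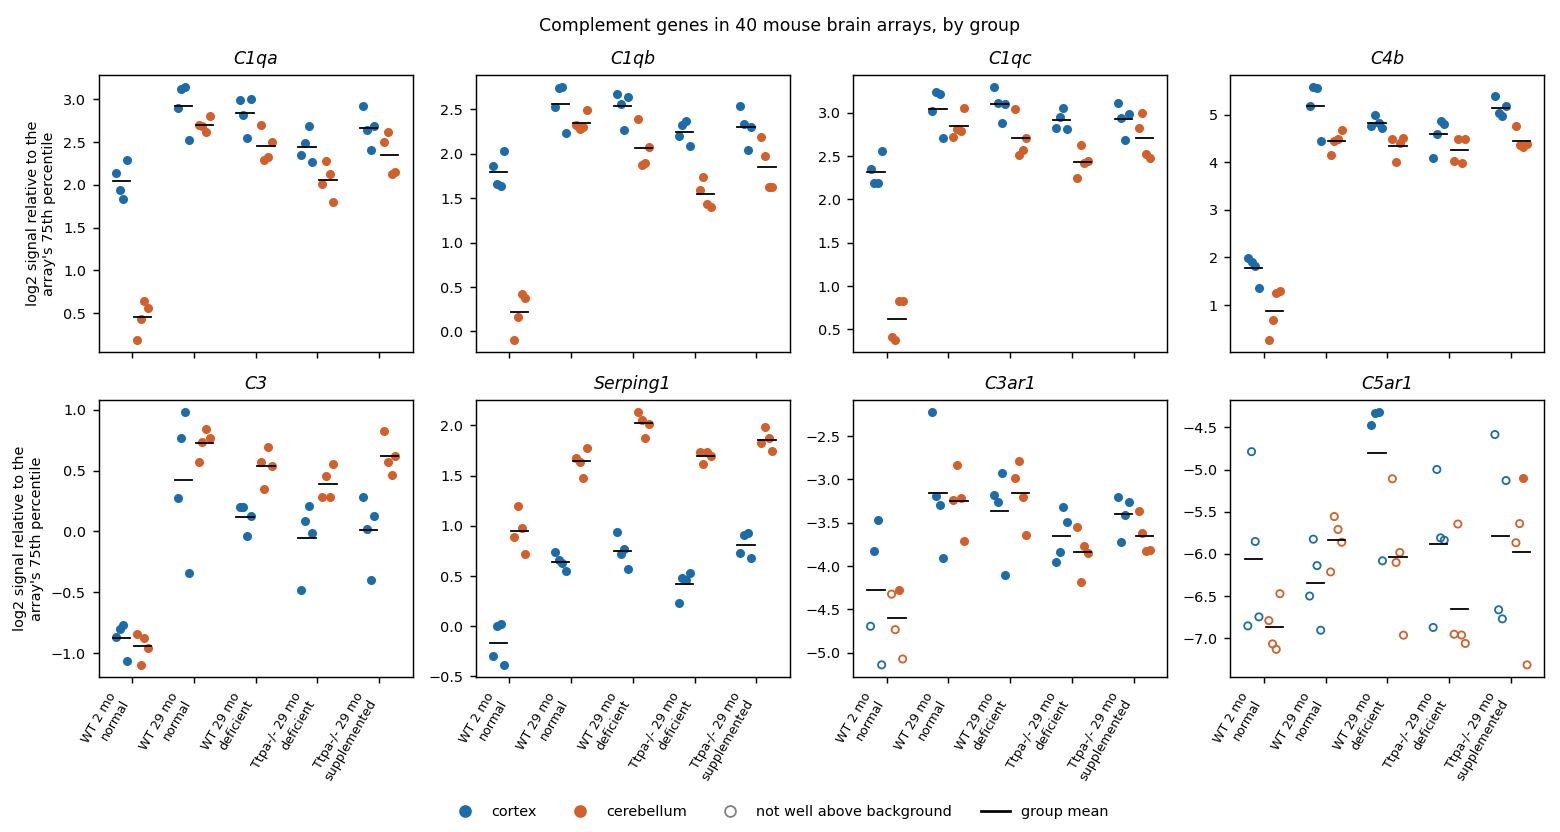
Log2 signal relative to the array's 75th percentile for each of the 8 genes (brightest probe), in 5 groups along the x axis, with cortex in blue and cerebellum in orange. Each point is 1 array, open points are not well above background and lines are group means. The young groups lie lowest for *C1qa*, *C1qb*, *C1qc*, *C4b*, *C3* and *Serping1* in each region, the gap is widest for *C4b*, and *C5ar1* is mostly open points.

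Aging was tested between wild-type mice of 29 and 2 months on the normal diet. In the cortex, every gene of the 8 that could be tested was higher in the aged mice. 9 of the 10 probes, for 7 genes, were tested, and all 9 were called higher, beside 1.59% of all probes tested; the median change of the 9 was 0.87, and that of all probes tested -0.03. Of the 9, the *C3ar1* probe was tested through its aged arrays alone, since 2 of 4 young arrays were above background. The aged arrays did not overlap the young for 8 of the 9 probes, beside 14.0% of all probes, in either direction. Bulk RNA cannot tell fewer cells of a type from less RNA per cell, nor more from more.

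*C4b*, whose product is cut to form part of the C3 convertase, had the largest change in the cortex among the brightest probes. Its young signals were 1.99, 1.91, 1.82 and 1.36, and its aged signals 5.19, 5.58, 5.55 and 4.44. Every aged array lay far above every young one, with the lowest at replicate 4. The change was 3.42 (SE 0.22, adjusted p = 2.64e-12), a 10.7-fold rise. *C3*, the central component on which all pathways meet, read -0.87, -0.80, -0.77 and -1.07 in the young cortex and 0.28, 0.77, 0.98 and -0.34 in the aged. Its change was 1.30 (SE 0.18, adjusted p = 1.12e-05), and that of the second *C3* probe was 3.52 (SE 0.36), from -2.77 ± 0.11 (SD, n = 4) to 0.75 ± 0.79 (SD, n = 4). Both probes rose, and the sizes, 2.46-fold and 11.5-fold, differed between probes that lie 202 bases apart. Aged replicate 4 was again the lowest array for both.

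The chains of C1q, the recognition molecule that starts the classical pathway, rose by less. *C1qa* reached 2.89, 3.13, 3.14 and 2.52 in the aged cortex, against the young values given above, a change of 0.87 (SE 0.15, adjusted p = 2.63e-04). *C1qb* changed by 0.76 (SE 0.14) and *C1qc* by 0.73 (SE 0.14). These 3 changes lie between 1.66-fold and 1.83-fold, with the arrays of the 2 ages apart for each gene. *Serping1* rose 1.75-fold, to 0.74, 0.66, 0.63 and 0.55 (log2 change 0.81, SE 0.10, adjusted p = 2.31e-06), and its second probe 1.74-fold. *C3ar1*, the receptor for the C3a fragment, was dim: 2 of 4 young arrays were above background, at -4.69, -3.82, -3.47 and -5.14, and the aged arrays read -2.22, -3.19, -3.30 and -3.91. Its change of 1.12 (SE 0.31, adjusted p = 0.031) is the only call whose groups overlapped, and it was lost when any 1 of 5 of the 8 arrays (young replicates 1 and 4, aged replicates 1, 2 and 3) was left out, with adjusted p between 0.0544 and 0.192. When the background was corrected by normexp its change shrank to 0.30 (adjusted p = 0.317). Without the filter on dim probes the call was also lost (adjusted p = 0.0542).

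The young and aged cortex arrays lay on 1 slide. With only these 8 arrays in the fit, the log2 changes were the same and 4 of the 9 probes were called: *C4b*, the second *C3* probe and both *Serping1* probes. *C1qa*, *C1qb*, *C1qc* and *C3* then had adjusted p between 0.057 and 0.0708, and *C3ar1* 0.294. Under median scaling *C1qb* and *C1qc* lost the call (adjusted p = 0.0608 and 0.0729).

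In the cerebellum the same 7 genes rose with age, and the chains of C1q by far more than in the cortex. All 9 probes tested were called higher, beside 3.99% of all probes tested, with a median change of 2.13 against -0.01 for all probes. The *C3ar1* probe was again tested through its aged arrays alone. None of the 9 overlapped between the ages, beside 19.1% of all probes without overlap. Here young and aged mice lay on different slides, so age cannot be told apart from slide.

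*C1qa* rose from the young values above, all below 0.65, to 2.70, 2.69, 2.62 and 2.81 in the aged cerebellum. The change was 2.25 (SE 0.15, adjusted p = 4.37e-13), a 4.76-fold rise. *C1qb* went from -0.09, 0.17, 0.42 and 0.38 to 2.32, 2.28, 2.30 and 2.50, and *C1qc* from 0.42, 0.38, 0.83 and 0.83 to 2.73, 2.81, 2.80 and 3.06, rises of 4.38-fold and 4.70-fold. The aged arrays of all these genes lay close together and the young ones near the array's 75th percentile.

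*C4b* rose from 0.27, 0.69, 1.25 and 1.30 to 4.16, 4.44, 4.48 and 4.67, a change of 3.56 (SE 0.22, adjusted p = 1.65e-13) or 11.8-fold. *C3* rose from -0.84, -1.10, -0.87 and -0.96 to 0.57, 0.73, 0.85 and 0.77, a change of 1.67 (SE 0.18), and its second probe by 4.21 (SE 0.36), with young arrays spread from -3.81 to -1.97. The ages were apart for both genes, and the 2 probes of *C3* differed in size as in the cortex. Across the alternative settings the change of the second *C3* probe ran from 3.34 to 4.22. *Serping1* rose by 0.69 (SE 0.10, adjusted p = 7.85e-06) and its second probe by 0.77 (SE 0.12). *C3ar1* was above background on 1 of 4 young and 4 of 4 aged arrays, with -4.32, -4.73, -4.27 and -5.07 against -3.24, -2.83, -3.22 and -3.71. Its change of 1.35 (SE 0.31, adjusted p = 0.00317) kept its call without any 1 array, and shrank to 0.46, under the fold change needed, when the background was corrected by normexp.

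The difference between the 2 aging changes was tested as an interaction. It was called for 3 of the 9 probes tested, all higher in the cerebellum, beside 1.0% of all probes: *C1qc* by 1.51 (SE 0.20, adjusted p = 2.15e-05), *C1qb* by 1.37 (SE 0.20, adjusted p = 1.16e-04) and *C1qa* by 1.38 (SE 0.21, adjusted p = 1.38e-04). All 3 calls held without any 1 of the 16 arrays and under all 10 other settings. For the other genes the difference did not pass the test. It was 0.14 (95% confidence interval -0.49 to 0.77) for *C4b*, 0.38 (-0.14 to 0.89) for *C3*, -0.11 (-0.40 to 0.18) for *Serping1* and 0.23 (-0.67 to 1.12) for *C3ar1*, so differences of those sizes could not be told from none with these arrays. The median over the 9 was 0.38, and over all probes 0.02.

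At 29 months no region difference passed the test for the C1q chains. In normally fed aged wild-type mice the cerebellum differed from the cortex by -0.22 (95% confidence interval -0.52 to 0.08) for *C1qa*, -0.21 (-0.50 to 0.08) for *C1qb* and -0.20 (-0.49 to 0.09) for *C1qc*. *Serping1* was still higher in the cerebellum, by 1.0 (SE 0.10, adjusted p = 3.76e-10) and 1.15 for its second probe, and *C4b* still lower, by -0.75 (SE 0.22, adjusted p = 0.00404), although its groups overlapped and the call was lost by the methods' t-test after Benjamini-Hochberg adjustment (adjusted p = 0.0635). These 3 calls were of 9 probes tested, beside 33.6% of all probes, so calls were about as common as over all probes. Region again coincides with slide here and cannot be told apart from it.

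**Figure D2:**
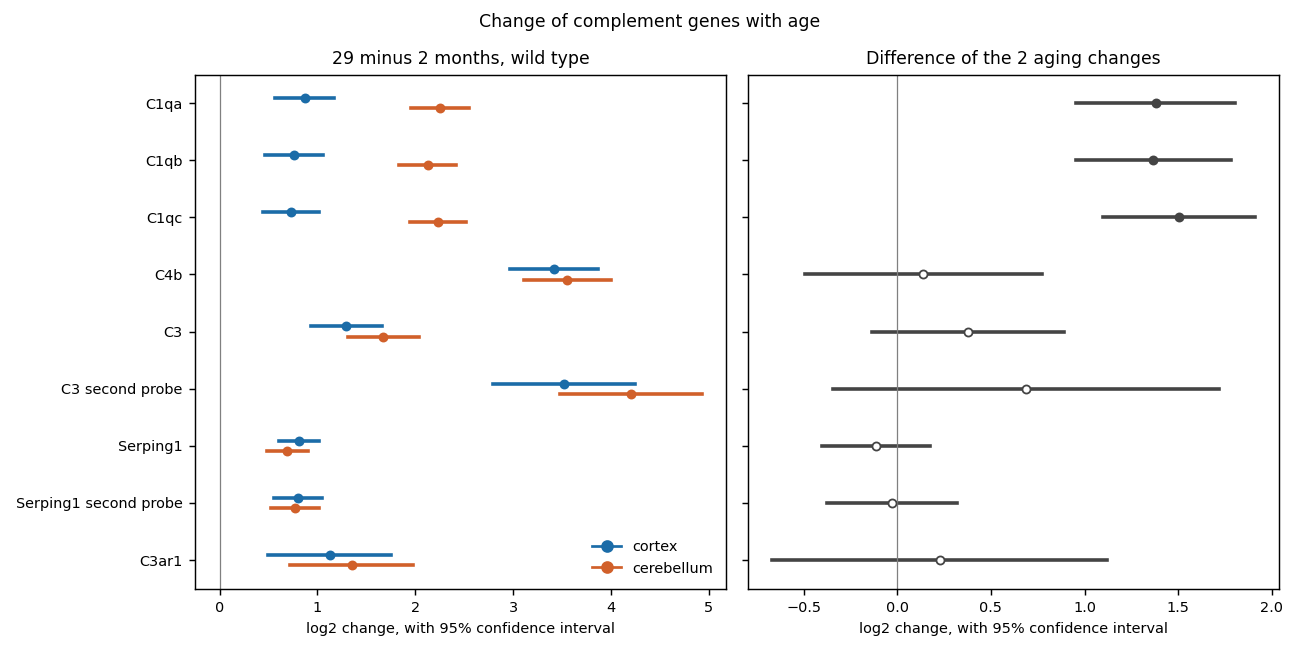
Log2 change from 2 to 29 months in wild-type mice (left; cortex blue, cerebellum orange) and the cerebellum change minus the cortex change (right), for the 9 probes tested. Points are fitted values, lines are 95% confidence intervals, and filled points were called. The left panel has all points above 0, and in the right panel only *C1qa*, *C1qb* and *C1qc*, from 1.37 to 1.51, are filled.

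Among the other genes of the complement system, some rose with age and most did not pass the test. A list of 52 such genes had 46 on the arrays. In the cortex 22 of them were tested, 3 were called higher, beside 1.59% of all probes, and 0 lower, with a median change of 0.11. In the cerebellum 25 were tested, 5 were called higher, beside 3.99% of all probes, and 1 lower, with a median of 0.16. The genes called stand at several points of the pathway. *C2*, whose product joins C4 in the C3 convertase, rose alike in cortex (0.98, SE 0.11) and cerebellum (0.97, SE 0.11). *C1ra*, one of the proteases of the C1 complex, changed by 1.35 (SE 0.25, adjusted p = 2.15e-04) in the cerebellum, and by 0.59 (adjusted p = 0.218) in the cortex. *Cfb*, factor B of the alternative pathway, was above background on 0 of 4 young and 4 of 4 aged cerebellum arrays, and was at least 2.24-fold higher with age (adjusted p = 6.04e-05); this bound sets the aged mean against the lowest signal well above background on each young array, or the probe's own signal where higher. Under normexp the *Cfb* log2 change was 0.56 and not called (adjusted p = 0.0564), so the bound holds for the main processing only. *Cfb* was tested through its aged arrays alone. *Hc*, which encodes C5, was lower in the aged cerebellum by -0.79 (SE 0.25, adjusted p = 0.0344), and its cortex change was 0.32 (adjusted p = 0.63). The *Hc* call was lost without any 1 of 6 of the 8 arrays, all but young replicate 4 and aged replicate 1, with adjusted p from 0.0522 to 0.138.

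Of the receptors for C3 fragments, the integrin chain gene *Itgax* was above background on 0 of 4 young arrays and 4 of 4 aged arrays in each region. It was tested through its aged arrays alone. By the bound used for *Cfb*, under the main processing, it was at least 12.7-fold higher in the aged cortex (adjusted p = 2.64e-12). In the aged cerebellum it was at least 23.1-fold higher (adjusted p = 3.81e-16). Other settings gave log2 changes of *Itgax* as low as 2.12 in the cortex and 2.97 in the cerebellum. Its partner chain gene *Itgb2* rose by 0.90 (SE 0.18) in the cortex and 1.99 (SE 0.18) in the cerebellum, and the difference of 1.09 was called (adjusted p = 0.0198), a call lost without aged cortex replicate 4 (adjusted p = 0.0522) and under median scaling (0.131). *Itgam*, the other partner of *Itgb2* in a complement receptor, gave -0.07 and -0.03 by its brightest probe, and 1 of its 3 probes was called in the cerebellum, at 0.89. The probes of *Itgam* thus differed.

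Markers of cell types moved with age as well, in part. Of 13 microglia markers, 2 were called higher in the aged cortex, *Trem2* (0.85, SE 0.16) and *Tyrobp* (0.78, SE 0.13), 9 in the aged cerebellum and 8 in the difference, beside 1.59%, 3.99% and 1.0% of all probes, and 0 lower in any of these, each by its brightest probe. In the aged cerebellum 1 of 3 *Siglech* probes was called, lower, in a range of -0.63 to 0.41. There 1 of 2 *Olfml3* probes (-0.39 to 0.79), 2 of 3 *Csf1r* probes (0.09 to 0.79) and 2 of 2 *Cx3cr1* probes (0.84 to 0.93) were called higher. Median changes of the 13 were 0.13 in the cortex, 0.87 in the cerebellum and 1.0 for the difference. The summed linear signal of the 13, relative to the 75th percentile, ran from 193 to 235 in the young cortex and 181 to 227 in the aged, and from 160 to 185 in the young cerebellum and 185 to 218 in the aged, with no marker below background on all arrays of any group. By their brightest probes, the microglia markers thus moved with the C1q difference between the regions, and their part in it was not tested.

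Of the other lists, border macrophage markers summed to 1.73 to 2.09 in the young cortex and 2.17 to 2.58 in the aged, and to 1.21 to 1.56 and 2.46 to 3.29 in the cerebellum, where *Cd163*, one of their defining markers, was above background on no array at either age. They were called higher for 1 of 4 tested in the cortex and 2 of 5 in the cerebellum, beside 1.59% and 3.99% of all probes. Red blood cell markers summed to 1.74 to 7.32 in the young and 18.0 to 40.8 in the aged cortex, and to 9.79 to 24.9 and 38.5 to 272 in the cerebellum. Blood myeloid markers went from between 0.326 and 0.603 to between 1.70 and 2.06 in the cortex, where *Ccr2* and *Ngp* were above background on no aged array, and from between 1.46 and 4.84 to between 5.17 and 52.7 in the cerebellum. Choroid plexus markers varied within groups, from 8.97 to 254 in the young cerebellum against 6.27 to 7.23 in the aged. Of 9 astrocyte markers, *Gfap* alone was called, higher in both regions (1.51 in the cortex, 1.87 in the cerebellum), beside the same shares of all probes. The part of these cells in the complement values was not tested.

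**Figure D3:**
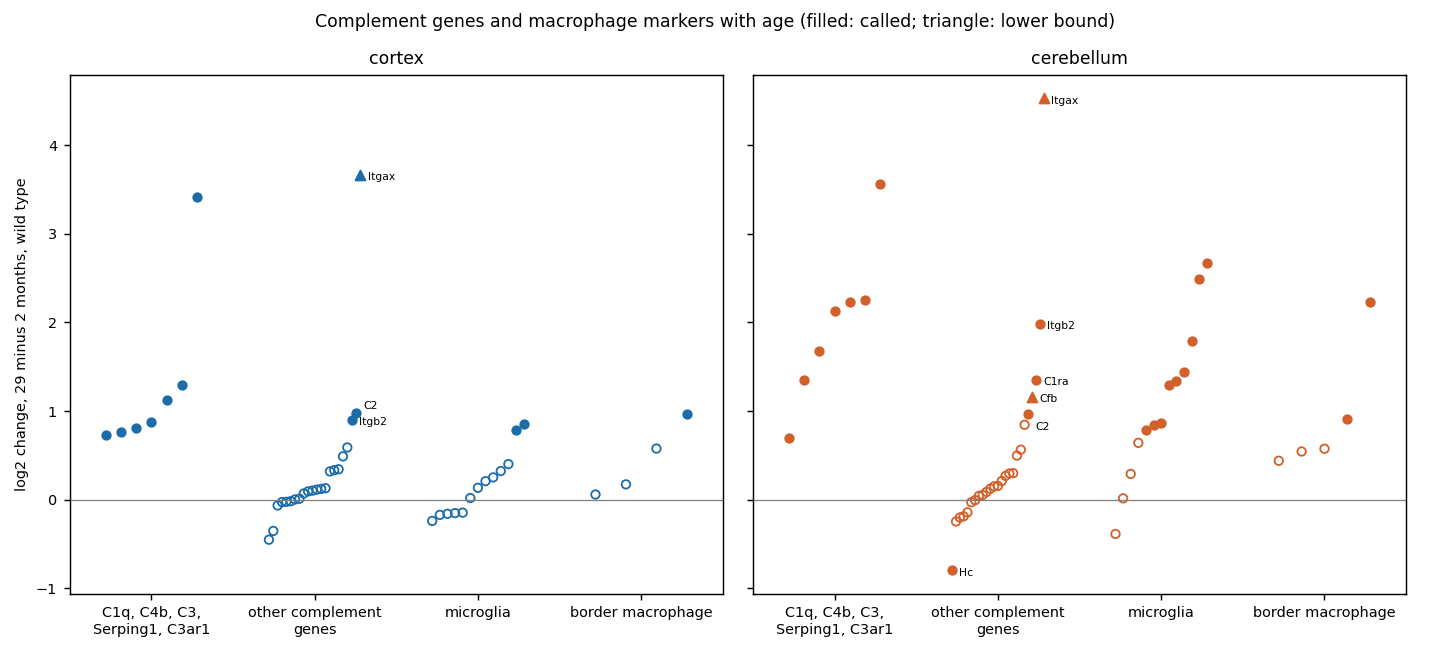
Log2 change from 2 to 29 months in wild-type cortex (left) and cerebellum (right) for the 7 complement genes tested, other complement genes, microglia markers and border macrophage markers; each point is 1 gene by its brightest probe. Filled points were called and triangles are lower bounds under the main processing, for genes not above background on any young array. *Itgax* stands highest in both panels, and the microglia markers lie higher in the cerebellum (median 0.87) than in the cortex (median 0.13).

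The 40 arrays were also used to describe which genes ran with the complement genes, after each gene was centred within its region. The arrays share age, diet, genotype and slide, so these correlations are a description only. *C1qa* and *C1qb* correlated at 0.99 with each other, at 0.98 and 0.97 with *C1qc*, and at 0.84 to 0.90 with *C4b* and *C3*. Over 15678 genes outside the 8, those most like *C1qa* were *Tyrobp* (Pearson r = 0.98), *Fcer1g* (0.98) and *Mpeg1* (0.98); *Tyrobp* and *Fcer1g* encode signalling adaptors of myeloid cells and *Mpeg1* a pore-forming protein of macrophages. *C1qb* had the same genes at 0.97 to 0.98, and *C1qc* had *Mpeg1*, *Fcer1g* and *Ctss*. *C3* was most like *Clec7a* (0.97), *Lyz1* and *Cst7*, and *C4b* most like *Clec7a* (0.98), *Itgax* (0.97) and *Cst7* (0.96). *Serping1* stood with *Lilrb4* (0.94), *Ppl* and *C2* (0.93), and *C3ar1* less closely with *Sp140* (0.82), *Pdcd1* and *Lilrb4*.

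Ttpa-/- mice on the deficient diet, the study's model of chronic oxidative stress, were set against wild-type mice of the same age fed normally. These comparisons share their wild-type arrays with aging, so a high or low wild-type array enters both, with opposite sign. In the cerebellum *C1qb* and *C1qa* were lower in the Ttpa-/- mice, and in the cortex the only call was the second *C3* probe. Genotype and diet change together here, and slide changes with them and cannot be told apart.

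In the cerebellum *C1qb* read 1.60, 1.74, 1.43 and 1.40 in the Ttpa-/- mice, all below the wild-type arrays given above. The difference was -0.81 (SE 0.14, adjusted p = 3.81e-04), 1.75-fold lower. *C1qa* read 2.02, 2.28, 2.12 and 1.80, also below all wild-type arrays, a difference of -0.65 (SE 0.15, adjusted p = 0.00371) or 1.57-fold lower. These 2 were called lower, of 9 probes tested, beside 1.79% of all probes. The *C1qa* call was lost without Ttpa-/- replicate 4 (-0.56, which is under the fold change needed) and under median scaling (adjusted p = 0.059). *C1qc* differed by -0.41 (SE 0.14, adjusted p = 0.048), under the fold change needed for a call. *C4b* differed by -0.19 (95% confidence interval -0.64 to 0.26), *C3* by -0.33 (-0.70 to 0.03), *Serping1* by 0.05 (-0.15 to 0.26) and *C3ar1* by -0.59 (-1.22 to 0.04), none past the test. The median of the 9 was -0.41 and that of all probes -0.02. *C1qa* at 2.06 ± 0.20 (SD, n = 4) remained far above the young cerebellum at 0.45 ± 0.20 (SD, n = 4).

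In the same comparison 3 of 13 microglia markers were called lower in the cerebellum, beside 1.79% of all probes, *Fcrls* (-1.43), *Tyrobp* (-0.80) and *Aif1* (-0.59), with a median of -0.24. Their summed signal was 160 to 211 in the Ttpa-/- mice against 185 to 218 in the wild type. Border macrophage markers were called lower for 2 of 5 tested, and summed to 1.63 to 2.11 against 2.46 to 3.29. *Gfap*, 1 of 9 astrocyte markers, was lower by all 3 of its probes (-0.83 to -0.64). Blood myeloid markers had a median of -1.69 with 0 of 4 called, and summed to 3.09 to 6.35 against 5.17 to 52.7 in the wild type. Of the other complement genes 0 of 24 tested were called by limma, and *Itgax* and *Itgb2* gave -0.79 and -0.45 with adjusted p of 0.0709 and 0.104. The part of these markers in the C1q values was not tested.

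In the cortex the second *C3* probe read -1.62, -0.02, 0.15 and -0.04 in the Ttpa-/- mice against 0.57, 1.29, 1.44 and -0.29 in the wild type. The groups overlapped, and Ttpa-/- replicate 1 and wild-type replicate 4 stood low in their groups. The difference of -1.14 (SE 0.36, adjusted p = 0.0242) was the 1 call, lower, among 9 probes tested, beside 1.60% of all probes. Without Ttpa-/- replicate 1 it was -0.72 (adjusted p = 0.178), and without wild-type replicate 2 or 3 it was also lost (adjusted p = 0.0963 and 0.101), while 4 probes were called without wild-type replicate 4. The brighter *C3* probe differed by -0.47 (SE 0.18, adjusted p = 0.0604), *C4b* by -0.60 (SE 0.22, adjusted p = 0.0514) and *C1qa* by -0.47 (SE 0.15, adjusted p = 0.0229), the last under the fold change needed. All 9 probes had values below 0, with a median of -0.47, beside 53.4% of all probes below 0 and a median of -0.02; the 9 were read from the same arrays and are not independent. In this comparison the microglia markers had a median of -0.39, with 1 of 13, *Trem2*, called lower (-0.66), and summed to 158 to 207 against 181 to 227 in the wild type. Of 23 other complement genes 1, *Itgax*, was called lower, at -1.0 (SE 0.29, adjusted p = 0.0165), a call lost without wild-type replicate 2 or 3 or Ttpa-/- replicate 1. The part of the markers in the complement values was not tested. The difference between the regions was called for 0 of 9 probes, beside 3.38% of all probes. At an unadjusted p under 0.05, a looser rule whose share over all probes was not computed, 1 probe passed. For *C1qb* the difference between the regions was -0.49 (95% confidence interval -0.90 to -0.08, adjusted p = 0.14), and the intervals do not settle whether the regions differed.

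Other pairs of the aged groups were also compared, and no probe of the 8 genes was called in any of these comparisons. The shares of all probes called in them depend on the spread pooled over the 10 groups. With only the 2 compared groups in the fit, 0 to 2 probes in all were called in 6 of these 8 comparisons. Counts at an unadjusted p under 0.05 follow a looser rule than the shares of all probes called. The share of all probes at that p was not computed. The deficient diet in wild-type mice called 0 of 9 probes in the cortex, beside 0.223% of all probes, with 0 at an unadjusted p under 0.05, and 0 of 9 in the cerebellum, beside 1.27%, with 2 at that p. The 2 were the *Serping1* probes. *Serping1* read 2.13, 2.05, 1.88 and 2.01 in the cerebellum on the deficient diet, all above the 1.68, 1.64, 1.48 and 1.77 of the normal diet. Its difference of 0.38 (SE 0.10, adjusted p = 0.0286) was 1.30-fold, under the 1.5-fold needed, and its second probe gave 0.37 (adjusted p = 0.0655). Both cerebellum groups lay on 1 slide.

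In Ttpa-/- mice the deficient was set against the supplemented diet. In the cortex 0 of 9 probes were called, beside 3.31% of all probes. At the looser unadjusted p under 0.05, with no share of all probes computed, 3 passed. *Serping1* read 0.23, 0.48, 0.46 and 0.53 on the deficient diet and 0.73, 0.91, 0.93 and 0.68 on the supplemented, without overlap. The difference was -0.39 (SE 0.10, adjusted p = 0.0101), and -0.46 (SE 0.12, adjusted p = 0.0115) for the second probe, both under the fold change needed. *C4b* differed by -0.56 (95% confidence interval -1.0 to -0.11, adjusted p = 0.0853), also without overlap, at 4.09, 4.60, 4.86 and 4.80 against 5.40, 5.04, 4.96 and 5.18. These cortex groups lay on different slides. In the cerebellum, where both diets lay on 1 slide, 0 of 9 were called, beside 0.343% of all probes, and 2 passed the looser unadjusted p under 0.05. *C1qa* differed there by -0.30 (-0.60 to 0.00), *C4b* by -0.20 (-0.65 to 0.24) and *Serping1* by -0.16 (-0.37 to 0.04).

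Ttpa-/- mice on the supplemented diet were set against wild-type mice on the normal diet. In the cortex 0 of 9 probes were called, beside 0.0920% of all probes, and 0 of 9 in the cerebellum, beside 4.91%. At the looser unadjusted p under 0.05, with no share of all probes computed, 2 and 3 probes passed. *C1qb* in the cerebellum, at 2.19, 1.97, 1.62 and 1.63, was below the wild-type arrays by -0.50 (SE 0.14, adjusted p = 0.0185), 1.41-fold. On the deficient diet, Ttpa-/- against wild-type mice gave 0 of 9 calls in the cortex, beside 3.07% of all probes. In the cerebellum 0 of 9 were called, beside 4.94%. At the looser unadjusted p under 0.05, again with no share of all probes, 3 and 5 probes passed. *Serping1* was lower there in both regions, by -0.33 (SE 0.10, adjusted p = 0.0304) in the cortex and -0.33 (SE 0.10, adjusted p = 0.0298) in the cerebellum, and *C1qb* in the cerebellum by -0.52 (SE 0.14, adjusted p = 0.0157), all under the fold change needed. Of 24 other complement genes tested in the cortex in this comparison 2 were called, named here after their values were seen. *Cfp*, which encodes properdin of the alternative pathway, was higher in the Ttpa-/- mice by 0.87 (SE 0.23, adjusted p = 0.0137), a call lost without replicate 1 of either group. *Mbl2*, which encodes a mannose-binding lectin, was called lower (adjusted p = 0.042), was above background on 0 of 4 Ttpa-/- and 4 of 4 wild-type arrays, and lost the call without any 1 of the 8 arrays. With only the compared groups in the fit neither was called (adjusted p = 0.0884 and 0.0805). In all these comparisons the 2 groups lay on different slides.

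**Figure D4:**
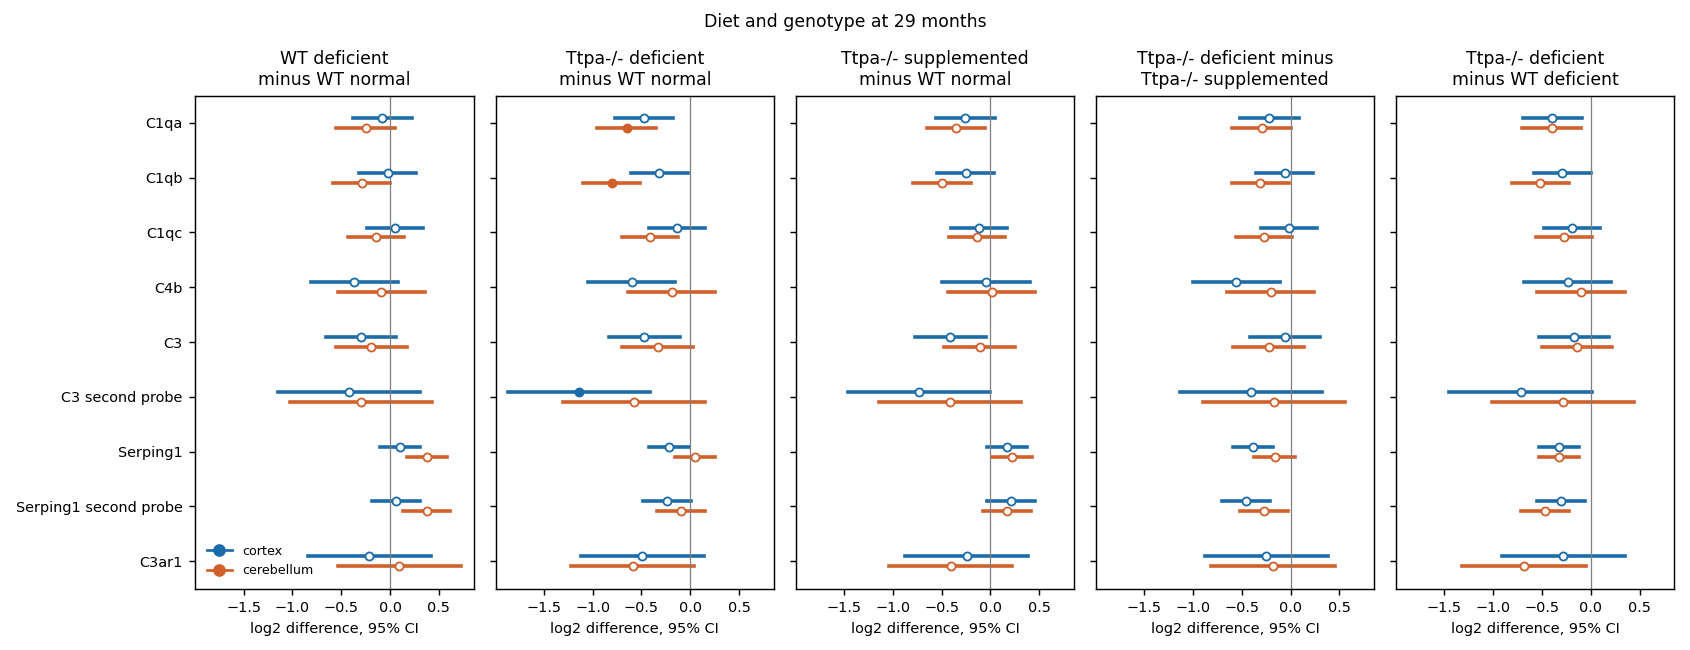
Log2 differences of the 9 probes tested in 5 comparisons of diet and genotype at 29 months, with cortex in blue and cerebellum in orange. Points are fitted values, lines 95% confidence intervals, and filled points were called. The filled points are *C1qa* (-0.65) and *C1qb* (-0.81) in the cerebellum and the second *C3* probe (-1.14) in the cortex, all in the comparison of deficient Ttpa-/- with normally fed wild-type mice.

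The order of the groups shows how the diet and genotype differences compare with age. In the cerebellum *C4b* stood at 0.88 ± 0.49 in young mice and at 4.43 ± 0.21, 4.35 ± 0.23, 4.25 ± 0.28 and 4.45 ± 0.20 (SD, n = 4 each) in the aged wild-type normal, wild-type deficient, Ttpa-/- deficient and Ttpa-/- supplemented groups. In the cortex, in the same order, it was 1.77 ± 0.28, 5.19 ± 0.53, 4.82 ± 0.11, 4.59 ± 0.35 and 5.14 ± 0.19. Every aged group lay above the young group of its region, and no difference tested between aged groups of the same region was called for *C4b*. For *C1qa* the cerebellum means were 0.45, 2.71, 2.45, 2.06 and 2.35, and the cortex means 2.05, 2.92, 2.84, 2.45 and 2.67, each with SD of 0.08 to 0.29. *Serping1* was highest in both regions in groups other than the normally fed aged wild type, at 2.02 ± 0.11 in the cerebellum of deficient wild-type mice and at 0.81 ± 0.12 in the cortex of Ttpa-/- mice on the supplemented diet.

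*C5ar1*, the receptor for the C5a fragment, was too dim to compare. It was above background on 0 of 4 arrays in 8 of the 10 groups, on 1 of 4 in the cerebellum of supplemented Ttpa-/- mice and on 3 of 4 in the cortex of wild-type mice on the deficient diet, at -4.47, -4.33 and -4.32, with the fourth array at -6.08. It was tested in none of the comparisons, and no fold change is given.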

How the data were processed

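Gene expression was measured in 40 mouse brain samples with 1-colour Agilent arrays. The authors deposited, for each array, the table of spots of the scanner software, which the submitters' processing notes name as Agilent Feature Extraction 10.1.1.1; the file headers give 10.7.3.1. The deposited processed signals are intensities from which that software had taken the background, array by array and with no normalization between them. A table of log2 values deposited by the authors was matched, within 0.000915 in the median, by log2 intensities scaled to the 75th percentile of the array and then centred per probe. RNA was isolated with a mirVana kit, and global normalization, R and a fold change over 1.5 are named in the study's methods, with Student's t tests and one-way ANOVA for data in general and none named for the arrays.

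Flagged spots (95 to 148 per array) were dropped, replicate spots averaged, and 55589 of 55681 probes were kept. Log2 processed signals, scaled to the 75th percentile, were fitted with limma 3.58.1 in R 4.3.3, with 1 coefficient for each group. Benjamini-Hochberg adjustment covered all probes tested. A probe with well above background flags on at least 50% of its spots counted as above background. For a gene with several probes, the one with the highest mean stands, and every member probe is given. Named beyond the members are other complement genes called with age and the 3 genes most like each member among probes above background on at least 20 arrays. Markers from the lists of cell types are named as well. *Itgam*, *Cfp* and *Mbl2* fall outside this rule, and *Cfp* and *Mbl2* were named after their values were seen. The members and lists were chosen with earlier results of these data known. The fit was tested on simulated data. Alternatives were other scalings and background corrections, the authors' values, other filters and thresholds, array weights, a replicate or slide block, the methods' t-test and leaving out each array.

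Between groups of the same region, same-numbered arrays correlated above 0 in all pairs (0.102 to 0.45) only for Ttpa-/- cortex on the 2 diets. There, 3 of the 4 deficient-diet arrays correlated best with the supplemented array of their own number. Between cortex and cerebellum, all pairs were above 0 in Ttpa-/- mice on the deficient (0.0521 to 0.204) and supplemented diets (0.0499 to 0.174). Of 4 cortex arrays, 4 and 1 correlated best with the cerebellum array of their own number. In the young, aged normal and aged deficient wild-type groups 2, 3 and 2 of 4 did. The labels give no meaning to the numbers. The values reported for the diets of Ttpa-/- cortex and for the differences between regions come from the fit without pairing. A replicate block was run only as an alternative.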

Additional observations from a re-analysis of the deposited data

Results flagged for a closer look

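The change with age differed between the regions for 3 genes, by an interaction term of the model. The cerebellum minus cortex difference was 1.38 for *C1qa*, 1.37 for *C1qb* and 1.51 for *C1qc*. Young and aged mice lay on 1 slide in the cortex and on different slides in the cerebellum, so a slide's part in these differences cannot be told apart, and that of the microglia markers was not tested.

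Of 88 sets of 4 arrays, each of 1 probe in 1 group, 5 held an array far from the other 3 by Dixon's ratio, and chance gives about 1 in 20. The second *C3* probe read -1.62 in Ttpa-/- cortex replicate 1 on the deficient diet, against -0.04 to 0.15 in the others, and 0.56 in wild-type cerebellum replicate 2 on the deficient diet, against 1.07 to 1.14. *C4b* read 4.75 in supplemented Ttpa-/- cerebellum replicate 1, against 4.31 to 4.38. The second *Serping1* probe read 0.78 in aged wild-type cerebellum replicate 3 on the normal diet, against 0.95 to 0.98, and 0.86 in supplemented Ttpa-/- cerebellum replicate 4, against 1.16 to 1.18.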

How the results depend on the processing

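No called log2 change of the 8 genes, nor of the other complement genes, reversed under any alternative run or without any array; for the other genes these runs were chosen after seeing the data. Aging in the cortex called 9 probes, 4 with the compared groups only and 4 by the methods' t-test after Benjamini-Hochberg adjustment, and 8 to 9 without any 1 array. Ttpa-/- mice on the deficient diet against wild-type mice on the normal diet called 1 probe in the cortex, 0 under median scaling, with the compared groups only and by the methods' t-test with or without adjustment, 2 under normexp, array weights, the unadjusted p of limma or no fold change threshold, and 0 to 4 without any 1 array. Over all 28913 probes tested, the settings with 2 called 698, 2118, 1747 and 5494, in that order. In the cerebellum the 2 calls fell to 1 under median scaling and were 1 to 2 without any 1 array. Comparisons with 0 calls gained some at looser thresholds. With no fold change threshold there was 1 for the deficient diet in wild-type cerebellum, 1 for supplemented Ttpa-/- against wild-type cerebellum, 2 for the diets of Ttpa-/- cortex, and, for Ttpa-/- against wild-type mice on the deficient diet, 1 in the cortex and 3 in the cerebellum. Over all probes tested that threshold called, in the same order, 1419 of 30990, 4581 of 31265, 4103 of 29077, 3772 of 29061 and 3900 of 30552. With the unadjusted p of limma there was 1 for genotype on the deficient diet in the cerebellum, beside 2415 of 30552 probes. There was also 1 for supplemented Ttpa-/- against wild-type cortex, beside 351 of 28268. The methods' t-test without adjustment gave 1 for genotype on the deficient diet in the cerebellum, beside 1860 of 30552. Leaving out 1 array gave 0 to 1 for the deficient diet in wild-type cortex (1 without deficient replicate 4) and for supplemented Ttpa-/- against wild-type cerebellum (1 without supplemented replicate 1). The counts of aging in the cerebellum, of the differences between regions and of the cerebellum against the cortex stayed within 1.5 times. Median scaling moved the median of all probes by -0.18 for the deficient diet in wild-type cerebellum, by 0.18 for Ttpa-/- against wild-type cerebellum on that diet and by 0.11 for the diets of Ttpa-/- cortex. With the replicate block, aging called 9 probes in each region, and no other count changed; the pair of Ttpa-/- cortex groups also gave 0 with the block and these groups only, an alternative chosen after seeing the data. The slide as a block left aging in the cortex at 9 and could not be fitted between slides. With the compared groups only, calls over all probes fell from 586 to 314 for aging in the cortex and from 1067 to 437 for the region difference of deficient Ttpa-/- mice against the wild type; that contrast fell from 1366 to 876 in the cerebellum. They fell from 63 and 395 to 0 for the deficient diet in wild-type cortex and cerebellum, from 961 and 105 to 0 for the diets of Ttpa-/- mice, from 26 to 1 for supplemented Ttpa-/- against wild-type cortex, and from 891 to 2 and 1510 to 569 for genotype on the deficient diet. Depth of signal limits *C3ar1* in young mice and *C5ar1* throughout. The causes of these changes were not tested.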
